A study of Mus musculus with 2 samples.

Results

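Genes that drive mitosis were lower in the pancreas of a mouse with a conditional knockout of the nardilysin gene, Nrdc, than in WT pancreas. Of 3 measured D-type cyclin genes and 6 MCM helicase genes, 0 were past 2-fold lower, against 17.3% of all genes measured. Sets this small cannot be told apart from that share. The account covers 50 cell cycle genes, picked by name and found on the arrays through the RefSeq accessions of their probes. They comprise 11 genes of G1, 15 of S phase and 24 of mitosis, with 78 probes in all, among 22907 genes with a named probe. Of the 50 genes, 44 were measured on both arrays, among 12997 such genes in the series.

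The series asked what nardilysin, a metalloendopeptidase encoded by Nrdc, does in the exocrine pancreas. Both groups were males of the C57BL/6 strain aged 5 weeks, with whole pancreas as the tissue and 1 array per group. The control is labelled WT, and the labels do not say whether it carried Cre or floxed alleles. The Nrdc-cKO mouse had the genotype Ptf1a-Cre; Nrdcflox/flox, in which Cre under Ptf1a removes Nrdc from pancreatic progenitors and the cells that arise from them, so islet, duct and acinar cells can carry the deletion while vessels, stroma and immune cells keep the gene. With 1 array per group there is nothing to test a difference against, so sizes are given without a p-value and describe these arrays only. In a whole organ, fewer cells of a type and less RNA per cell cannot be told apart.

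A cell that leaves quiescence raises D-type cyclins, which pair with CDK4 and CDK6 to release E2F factors from the retinoblastoma protein. E2F then turns on genes for replication, and genes for mitosis follow later under a complex of MuvB, B-Myb and FOXM1, whose members bind CHR elements in promoters. In resting cells the DREAM complex holds the same genes off. In the adult pancreas most acinar cells rest, whereas at weaning age acinar cells still divide.

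Levels below are log2 processed signals minus the 75th percentile of the array, and a difference is the Nrdc-cKO level minus the WT level. A difference of at least 1.0, which is 2-fold, either way was used as the size rule. The scaling matters because the Nrdc-cKO array was brighter. Its 75th percentile was a signal of 227 against 70.8 on the WT array, and 60.3% of non-control spots were well above background against 46.3%. Nrdc itself had a level of 1.93 in WT and -1.28 in Nrdc-cKO, 9.25-fold lower. A probe outside the deleted part of the gene would not check the genotype, and the labels do not give that part. Of 20 acinar markers, all 20 were measured on both arrays, as the labelled tissue would have them. After scaling, 19 of them were past 2-fold lower in the Nrdc-cKO pancreas. Before scaling, their median difference was -0.08.

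Over the measured cell cycle genes, 29 of 44 were past 2-fold lower in the Nrdc-cKO pancreas and 0 were past 2-fold higher. Across all 12997 genes, 17.3% were past 2-fold lower and 12.8% past 2-fold higher. The median difference was -1.35 for the cell cycle genes and -0.18 for all genes. By phase, 2 of 8 G1 genes, 7 of 15 S phase genes and 20 of 21 mitotic genes were past 2-fold lower. The medians followed the same order, at -0.22 for G1, -0.76 for S phase and -1.87 for mitosis. The median mitotic gene was thus 3.66-fold lower, and it lay 1.11 on the log2 scale below the median S phase gene.

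**Figure D1:**
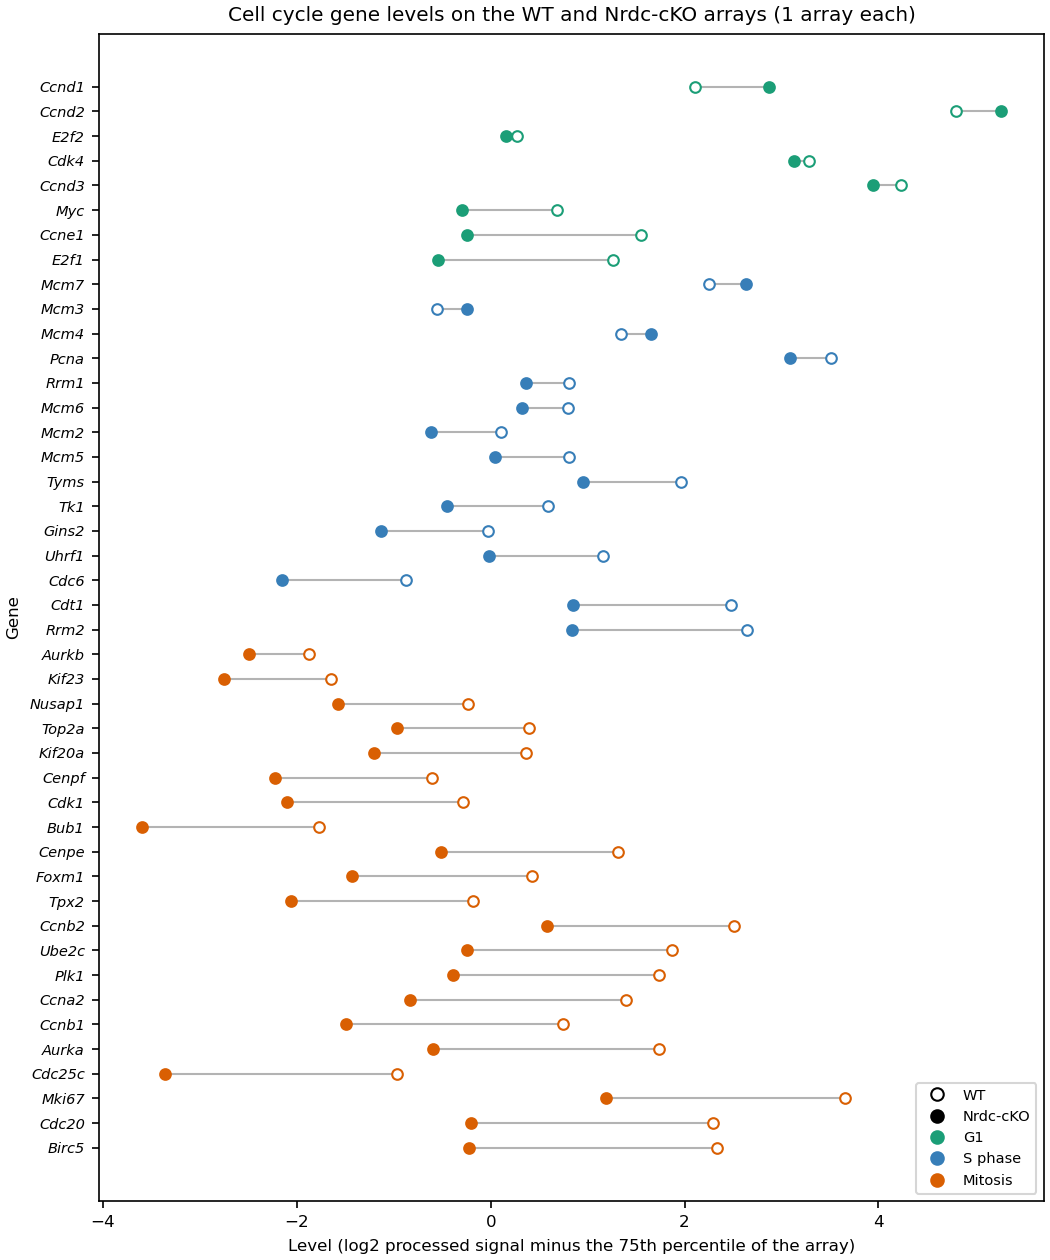
Level of each cell cycle gene measured on both arrays, as log2 processed signal minus the 75th percentile of the array on the horizontal axis, with 1 gene per line. Open points are the WT array, filled points the Nrdc-cKO array, and colours give the phase. Every mitotic gene has its filled point to the left, while Ccnd1, Ccnd2, Mcm3, Mcm4 and Mcm7 have it to the right; levels of different genes come from different probes and are not comparable.

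**Figure D2:**
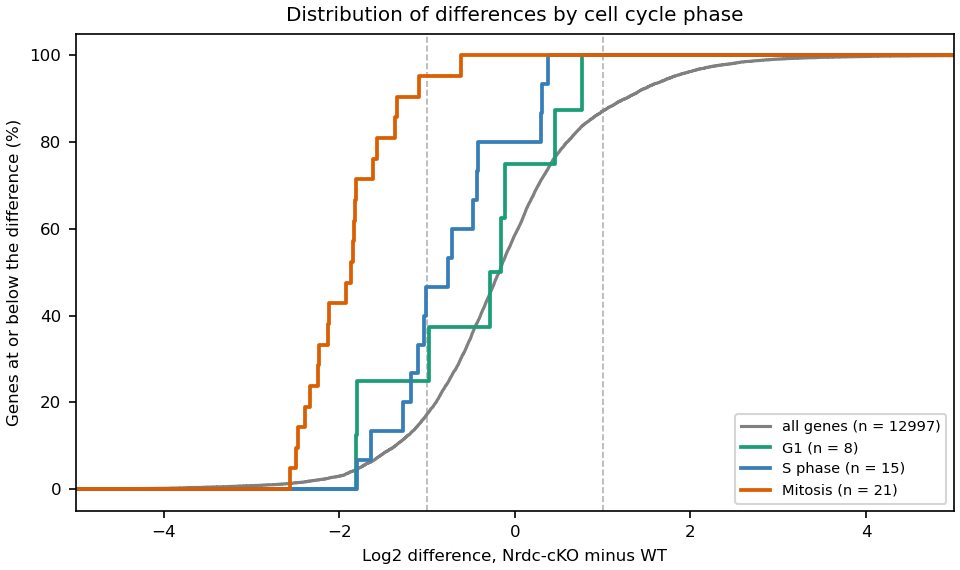
Cumulative share of genes, in percent, at or below each log2 difference, Nrdc-cKO minus WT, for all 12997 genes and for the G1, S phase and mitotic genes. Dashed lines mark 2-fold. The mitotic curve lies wholly to the left of 0, and the median S phase gene lies between the median mitotic gene and the median G1 gene. In the left tail the curves cross, since Ccne1 and E2f1 are among the 8 G1 genes.

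Scaling subtracts 1 constant per array, so it leaves the order and spacing of the phases as they are and sets only where 0 lies. Before scaling, the median of all genes was 1.5 higher on the Nrdc-cKO array, and 5.90% of genes had a lower signal there. In contrast, 15 of 21 mitotic genes had a lower signal, against 1 of 15 S phase genes and 2 of 8 G1 genes. The unscaled medians were -0.19 for mitosis, 0.92 for S phase and 1.46 for G1.

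The G1 genes went both ways. Ccnd1 and Ccnd2 encode D-type cyclins, which carry growth signals to the cell cycle. Ccnd1 had a level of 2.10 in WT and 2.87 in Nrdc-cKO, a difference of 0.76. Ccnd2 stood at 4.80 and 5.26, with a difference of 0.46 over 3 probes that ranged from 0.32 to 0.66. Both cyclins were higher on the Nrdc-cKO array but short of 2-fold, although Ccnd1 passed it with normexp and the 75th percentile (1.07) and in the value table (1.26). Ccnd3, the remaining D-type cyclin, was at 4.23 and 3.95, a difference of -0.29. Cdk4, the kinase they activate, was at 3.28 and 3.13, and its 3 probes gave differences between -0.18 and -0.10. In signal, Ccnd1 read 304 in WT and 1662 in Nrdc-cKO.

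Of the genes that act at the end of G1, Ccne1 and E2f1 were past 2-fold lower. Ccne1, encoding the cyclin that partners CDK2 at the start of replication, had levels of 1.55 and -0.25, a difference of -1.80. E2f1, an activator of replication genes, had levels of 1.26 and -0.54, a difference of -1.81. E2f2, a second activator E2F, did not share this, with levels of 0.27 and 0.16 and probes on both sides of 0, at -0.32 and 0.09. The growth regulator Myc was just short of the size rule, at 0.68 and -0.30, with a difference of -0.98.

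The other 3 G1 genes gave no measured difference. Cdk2 and Cdk6 were well above background only on the Nrdc-cKO array. For Cdk2 the bound was at least 1.32-fold higher there. For Cdk6 the bound was under 1 and gives no fold, and Ccne2 was not well above background on either array.

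Among the S phase genes, those of the MCM helicase had smaller differences than 7 of the other 9. Pcna and Rrm1 lay within the range of the MCM genes. The 6 MCM proteins form the ring that unwinds DNA at the fork. Of their 6 genes 0 were past 2-fold, against 17.3% lower and 12.8% higher over all genes. Their differences ran from -0.76 to 0.38, with a median of -0.09. Mcm7 had levels of 2.25 and 2.63, Mcm4 of 1.35 and 1.65, and Mcm3 of -0.55 and -0.25. These were higher on the Nrdc-cKO array by 0.38, 0.30 and 0.31, although the 3 Mcm3 probes spread from -0.09 to 0.77. Mcm5 (0.81 and 0.05), Mcm2 (0.10 and -0.61) and Mcm6 (0.80 and 0.32) were lower by less than 2-fold. Pcna, the sliding clamp of the polymerase, was close to them with levels of 3.51 and 3.09, a difference of -0.42.

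The factors that load and fire the helicase were lower by more. Cdt1, which brings the MCM ring to origins, had levels of 2.48 and 0.85, a difference of -1.64. Cdc6, its partner at origins, had levels of -0.87 and -2.15, a difference of -1.28. Gins2, a subunit of the active helicase, had levels of -0.03 and -1.13, a difference of -1.11. All 3 were past 2-fold lower in this processing, but Cdc6 was short of it with loess (-0.75), with both normexp settings (-0.94 and -0.57) and in the value table (-0.78). Gins2 was short of it with both normexp settings (-0.79 and -0.61), in the value table (-0.61) and with the 75th percentile over detected probes (-0.94), and Cdt1 kept the call in all of these. The signal of Cdt1 read 396 and 409, so it did not share the brighter signal of the Nrdc-cKO array.

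Genes for nucleotide supply were lower to different degrees. The subunits of ribonucleotide reductase, which makes deoxyribonucleotides, differed from each other. Rrm2, the subunit that cycles with S phase, had levels of 2.64 and 0.84, a difference of -1.80, whereas Rrm1, the stable subunit, had 0.80 and 0.37, a difference of -0.43. Thymidylate synthase, Tyms, was at 1.96 and 0.95, and thymidine kinase, Tk1, at 0.59 and -0.45. Their differences of -1.01 and -1.04 lay just past the size rule, and for each of them 1 of 2 probes was short of it. Spike-in scaling aside, Tyms kept the call in 3 of 10 other processings and Tk1 in 3 of 9. Uhrf1, which guides DNA methylation to new strands, had levels of 1.16 and -0.02, a difference of -1.18. Uhrf1 was short of 2-fold with both normexp settings (-0.76 and -0.81) and in the value table (-0.68). A further Uhrf1 probe was not well above background on either array.

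The mitotic genes were lower as a block. Differences of the 21 measured genes ran from -2.57 to -0.62, and all 21 lay below the median of all genes. At 4-fold, 9 of 44 cell cycle genes were lower, all 9 of them mitotic, against 3.0% of all genes, and 0 were higher, against 3.73%. These 9 were Birc5, Cdc20, Mki67, Cdc25c, Aurka, Ccnb1, Ccna2, Plk1 and Ube2c. At 1.5-fold, 33 of 44 cell cycle genes were lower, against 31.3% of all genes, and 1 was higher, Ccnd1, against 20.1%.

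Mki67, the gene of the Ki-67 antigen used to count cycling cells, had levels of 3.66 in WT and 1.19 in Nrdc-cKO, 5.54-fold lower. Before scaling its signal read 894 and 518, lower on the otherwise brighter array. Top2a, the topoisomerase that untangles sister chromatids, was lower by less, at 0.39 and -0.97, and its 2 probes gave -1.43 and -1.29. It was short of 2-fold with both normexp settings (-0.92 and -0.85) and in the value table (-0.87).

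The cyclins and kinase that start mitosis were all past 2-fold lower in this processing. Ccna2 had levels of 1.39 and -0.84, with its 2 probes within 0.05 of each other around -2.23. Ccnb1 stood at 0.75 and -1.50 by the probe detected on both arrays, a difference of -2.24. A further 2 probes of Ccnb1 were detected in WT alone, at least 4.62-fold and 6.59-fold brighter there. Ccnb2 had levels of 2.51 and 0.58, a difference of -1.93. The kinase gene Cdk1 was at -0.29 and -2.10, a difference of -1.81, but it was short of 2-fold with normexp and quantile scaling (-0.91). The phosphatase gene Cdc25c, whose product activates CDK1, was at -0.97 and -3.36, a difference of -2.39. Its signals were dim, at 36.1 and 22.1, and Cdc25c too was short of 2-fold with normexp and quantile scaling (-0.78).

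Of the genes for exit from mitosis, Cdc20 and Ube2c were among the lowest. Cdc20, which activates the anaphase-promoting complex, had levels of 2.30 and -0.20, with 2 probes at -2.57 and -2.42. Ube2c, the ubiquitin-conjugating enzyme of the same complex, had levels of 1.87 and -0.24, a difference of -2.12. The core subunits of that complex differed by less. A set of 10 core subunits, grouped after their values were seen, ranged from -0.57 to 0.69 with a median of -0.31. In the list of other entry and exit genes given below, 8 of 26 were past 2-fold lower, against 17.3% of all genes. The exit genes Fzr1 (-0.47), Espl1 (-0.11) and Pttg1 (-0.008), chosen after their values were seen, were not.

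Mitotic kinases were lower, with an exception near background. Aurka, the spindle pole kinase, had levels of 1.73 and -0.60, a difference of -2.33. Plk1, which acts throughout mitosis, had levels of 1.73 and -0.39, a difference of -2.12. Birc5, or survivin, a subunit of the chromosomal passenger complex, had the largest difference of the 44 genes, with levels of 2.34 and -0.23 and probes at -2.63 and -2.50. Aurkb, the kinase of that complex, was the 1 measured mitotic gene short of 2-fold, at -1.88 and -2.49. Its signals were 19.3 and 40.4, a further probe was not well above background on either array, and its difference of -0.62 turned slightly positive with loess scaling.

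Spindle, kinetochore and checkpoint genes lay past 2-fold but short of 4-fold, and most of these calls depended on the processing. The spindle factor Tpx2 was at -0.19 and -2.06, the kinesin Kif20a at 0.37 and -1.20, the spindle protein Nusap1 at -0.23 and -1.57, and the kinesin Kif23 at -1.65 and -2.75. The kinetochore motor Cenpe had levels of 1.32 and -0.52, and Cenpf, with probes at -1.92 and -1.33, of -0.60 and -2.23. Their differences lay between -1.87 and -1.10. Bub1, a kinase of the spindle checkpoint, had levels of -1.78 and -3.59, with signals of 20.7 and 18.8 that were as dim as those of Aurkb. With normexp and quantile scaling Tpx2 (-0.82), Kif20a (-0.85), Nusap1 (-0.62), Cenpf (-0.70), Bub1 (-0.46) and Kif23 (-0.38) were short of 2-fold, and with loess so were Bub1 (-0.77) and Kif23 (-0.45). Nusap1 and Kif23 were also short of it with normexp and the 75th percentile (-0.91 and -0.98) and in the value table (-0.84 and -0.60). Kif23 was short of it as well with the 75th percentile over detected probes (-0.93) and with no filter (-0.79). A further Kif23 probe was detected in Nrdc-cKO alone, with no bound above 1. Cenpe stayed past 2-fold lower in every processing that measured it but spike-in scaling, and it was not measured with bright probes only. Foxm1, the transcription factor that activates many mitotic genes, had levels of 0.42 and -1.43, a difference of -1.85. Bub1b was well above background in Nrdc-cKO alone and its bound, under 1, gives no fold, and neither Kif11 nor the 3 probes of Ttk were well above background on either array.

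Promoter sequences are shown because the classes, whose differences were unlike in size, also differed in the short motifs around the starts of their genes. RefSeq promoter windows of build GRCm38.p6, 250 bases before to 50 after a gene's start, matched 38 of the 50 genes. The other 12 were Aurkb, Ccna2, Ccnd1, Ccnd2, Ccne2, Cdc25c, Foxm1, Gins2, Kif20a, Mcm4, Myc and Tpx2. Windows were searched on both strands for the CHR element (TTTGAA or TTTAAA), the CCAAT box bound by NF-Y, and E2F sites (TTTCCCGC, TTTGGCGC, TTTCGCGC or TTTGCCGC). No motif in this set contains another, though neighbouring matches can share a base. Where a gene has several windows, a match in any of them counts.

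Mitotic promoters held CHR and CCAAT motifs, and S phase promoters held E2F motifs. A CHR motif was found for 16 of 18 mitotic genes (88.9%), against 30.6% of the 27025 genes in the table, 38.5% of S phase genes and 28.6% of G1 genes. A CCAAT box was found for 16 of 18 mitotic genes and 9 of 13 S phase genes, against 41.1% of all. Both motifs in 1 window were found for 15 of 18 mitotic genes (83.3%), against 12.2% of all. An E2F motif was found for 7 of 13 S phase genes (53.8%) and 1 of 18 mitotic genes, Cdk1, against 2.61% of all. Over the 10348 genes with a promoter that were measured on both arrays, the shares were 23.2% for CHR and 42.6% for CCAAT. They were 9.63% for both in 1 window and 4.36% for E2F. A match is a description of the letters and does not show that a factor binds.

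The CHR motif nearest to the gene's start is shown in capitals, within 30 bases in the direction of the gene, for the mitotic genes at least 4-fold lower that have one, from the largest difference to the smallest.
Birc5: cagcggacatgcTTTAAAgaggtgccccag
Cdc20: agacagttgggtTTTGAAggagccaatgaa
Mki67: ccgccgttttggTTTGAAtcgggcgggctg
Aurka: tttgactcctatTTTAAAaggagaaccttt
Ccnb1: agcggcccggggTTTAAAcctaagcccggc
Plk1: gcgggtttgtatTTTAAAtccccgcggcca
Ube2c: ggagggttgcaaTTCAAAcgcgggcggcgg
The motif begins 18 bases before the start in Cdc20, 42 in Ccnb1, and 29 in Plk1 and in Ube2c, where it is on the opposite strand. In Mki67 it begins 98 bases and in Birc5 220 bases before the start, and in Aurka it begins at base 18 after it. The stretches lie at chr11:117849005-117849034 (Birc5, plus strand), chr4:118437344-118437373 (Cdc20, minus), chr7:135716460-135716489 (Mki67, minus), chr2:172370536-172370565 (Aurka, minus), chr13:100786511-100786540 (Ccnb1, minus), chr7:122159394-122159423 (Plk1, plus) and chr2:164769888-164769917 (Ube2c, plus).

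The E2F motif of the 7 S phase genes that have one is shown the same way, in the order of their differences.
Cdt1: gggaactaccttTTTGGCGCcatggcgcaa
Cdc6: gccggtggagaGCGGGAAAtcgcctggggt
Uhrf1: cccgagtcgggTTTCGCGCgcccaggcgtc
Mcm5: caagaactttcGCGCCAAAacgtccagcct
Mcm6: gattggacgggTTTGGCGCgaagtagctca
Mcm3: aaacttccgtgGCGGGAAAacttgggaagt
Mcm7: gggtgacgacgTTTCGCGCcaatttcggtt
They lie at chr8:122568035-122568064 (Cdt1, plus strand), chr11:98908002-98908031 (Cdc6, plus), chr17:56304117-56304146 (Uhrf1, plus), chr8:75109349-75109378 (Mcm5, plus), chr1:128359734-128359763 (Mcm6, minus), chr1:20820275-20820304 (Mcm3, minus) and chr5:138171849-138171878 (Mcm7, minus). In Cdc6, Mcm5 and Mcm3 the motif is on the opposite strand. In Cdt1, Mcm3 and Mcm7 it lies after the start. The differences of these genes span nearly the whole S phase range, from -1.64 for Cdt1 to 0.38 for Mcm7. Their median was -0.76, and that of the 6 S phase genes with no E2F motif in the window was -0.86, so the medians with and without the motif were close.

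Longer stretches show how the motifs sit together. The 250 bases before the start of Cdc20 (chr4:118437344-118437593, minus strand), Mki67 (chr7:135716380-135716629, minus strand) and Rrm2 (chr12:24708004-24708253, plus strand) are given with CHR and CCAAT motifs in capitals.
Cdc20: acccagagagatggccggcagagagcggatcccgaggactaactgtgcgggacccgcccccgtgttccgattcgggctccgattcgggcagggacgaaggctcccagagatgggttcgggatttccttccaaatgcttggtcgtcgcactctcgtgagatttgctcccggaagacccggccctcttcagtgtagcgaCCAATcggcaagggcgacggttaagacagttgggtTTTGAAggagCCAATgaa
Mki67: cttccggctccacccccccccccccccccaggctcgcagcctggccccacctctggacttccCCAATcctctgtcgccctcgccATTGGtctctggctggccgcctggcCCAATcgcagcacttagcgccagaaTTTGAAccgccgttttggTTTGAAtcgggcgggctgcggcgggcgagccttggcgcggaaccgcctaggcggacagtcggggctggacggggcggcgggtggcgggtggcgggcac
Rrm2: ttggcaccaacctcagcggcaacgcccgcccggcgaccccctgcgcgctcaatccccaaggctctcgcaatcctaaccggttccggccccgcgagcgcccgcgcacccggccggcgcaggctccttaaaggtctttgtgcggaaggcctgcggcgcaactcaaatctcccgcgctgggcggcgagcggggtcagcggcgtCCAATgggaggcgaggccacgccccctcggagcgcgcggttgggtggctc
Mki67 has 3 CCAAT boxes, 1 of them on the opposite strand, ahead of 2 CHR motifs. Cdc20 has a CCAAT box on either side of its CHR motif. Rrm2 has a CCAAT box in this stretch and its CHR motif lies at the gene's start, just past the letters shown.

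Other genes of the cell cycle were taken from lists, which held 203 genes beside the 50, of which 173 were measured. Of these, 58 were past 2-fold lower and 7 past 2-fold higher, and the median was -0.57. Over all genes measured, 17.3% were past 2-fold lower and 12.8% past 2-fold higher, which is the background for each list below. The spindle and kinetochore lists had the lowest medians in this processing. Of 25 spindle, kinesin and cytokinesis genes, 18 were lower and 0 higher, with a median of -1.52. Cdca3, a trigger of mitotic entry, had levels of 1.99 and -0.91, a difference of -2.91, and the spindle protein Knstrn differed by -2.31, whereas the microtubule proteins Ckap5 (0.24) and Numa1 (-0.07) were highest. Of 29 kinetochore and checkpoint genes, 15 were lower and 0 higher, with a median of -1.02. With bright probes only that median was -0.25, above those of mitotic entry and exit genes (-0.51) and of origin and fork genes (-0.33). Spc24, a subunit of the NDC80 complex, had levels of 3.21 and -0.05, a difference of -3.25, followed by the cohesin protector Sgo1 at -1.95, while Bub3 (0.43) and Zwint (0.39) were highest.

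Regulators of mitotic entry and exit were split, with 8 of 26 lower, 0 higher and a median of -0.49. The mitotic kinase Pbk had levels of 0.62 and -2.40, a difference of -3.02, and the kinase Melk was at -2.28. The complex subunit Anapc10 (0.69) and the phosphatase Cdc25b (0.31) were highest. The other origin and fork genes had 10 of 41 lower and 0 higher, with a median of -0.59, from the replication initiator Ticrr (-1.84) and the kinase activator Dbf4 (-1.62) to the polymerase subunit Pola1 (0.36) and the replication protein Rpa3 (0.53). Condensin and cohesin genes had 1 of 17 lower and 1 higher. The condensin subunits Ncapg (-1.75) and Ncaph (-0.86) were lowest, and the cohesin genes Stag1 (0.51) and Pds5b (1.0, but -0.049 with normexp and the 75th percentile) highest. Of 13 genes of the pocket protein, E2F and DREAM families, 3 were lower and 0 higher. B-Myb, Mybl2, was lowest at -1.80, followed by the MuvB subunit Lin37 at -1.09, and E2f6 (0.61) and the retinoblastoma gene Rb1 (0.24) were highest.

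Inhibitors of the cycle included large differences in the other direction. Of 6 measured CDK inhibitor genes, 2 were past 2-fold higher and 1 past 2-fold lower. Cdkn1a, which encodes the CDK inhibitor p21, had levels of 0.43 in WT and 4.81 in Nrdc-cKO, 20.7-fold higher. Cdkn1c, encoding p57, differed by 1.11, and Cdkn2b, encoding p15, was detected in Nrdc-cKO alone, at least 7.44-fold brighter. Cdkn3, a phosphatase that acts on CDKs, went the other way at -2.93 with levels of 0.98 and -1.95, and Cdkn2d was at -0.55. Cdkn2a was likewise detected in Nrdc-cKO alone, but its bound was under 1.

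Of 16 growth arrest genes, 4 were past 2-fold higher and 2 past 2-fold lower, against 12.8% and 17.3% of all genes. Phlda3, a p53 target that restrains Akt, had levels of 1.52 and 5.33, a difference of 3.81. Trp53inp1, a p53-induced stress gene, had levels of 0.91 and 3.34, a difference of 2.43. Ccng1, a p53 target chosen after its value was seen, had levels of 2.23 and 4.08, a difference of 1.85. Gadd45g (-1.82) and Sesn1 (-1.70) were lowest, so the p53-linked genes did not all lie on 1 side. Trp53 itself and the p53 target Mdm2, chosen after their values were seen, were at 0.76 and 0.39.

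**Figure D3:**
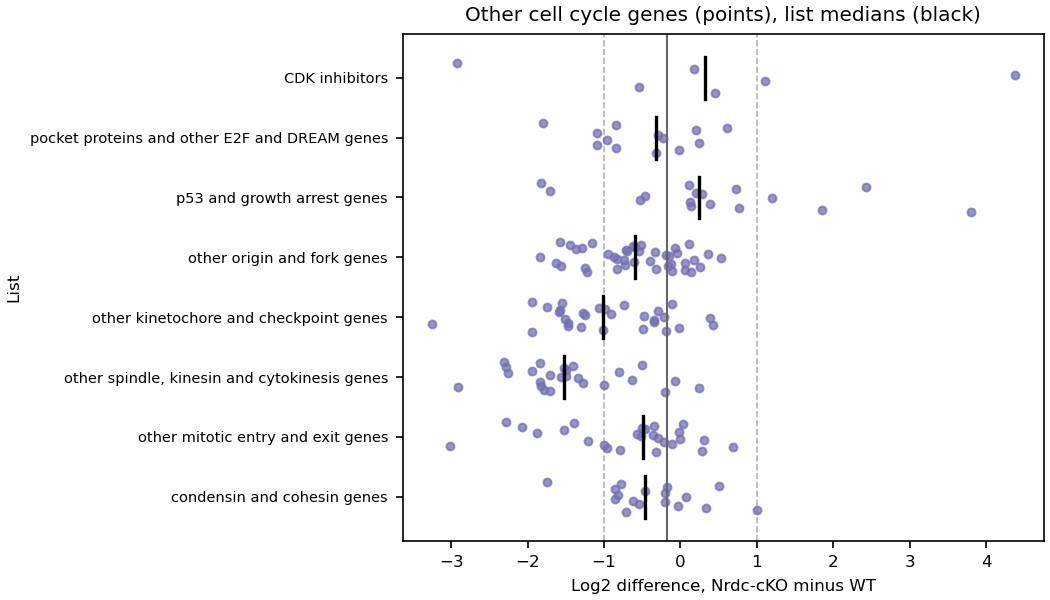
Log2 difference, Nrdc-cKO minus WT, of each measured gene (points) in 8 lists of other cell cycle genes, with list medians as black bars, the median of all genes as a grey line and 2-fold as dashed lines. The spindle list has the lowest median, at -1.52, and Cdkn1a is the rightmost point, at 4.37.

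Markers of several cell types differed between the same arrays, and their part in the cell cycle differences was not tested. Of 20 acinar markers, 19 were past 2-fold lower, 0 were higher and the median was -1.76. Before scaling that median was -0.08, and the scaling lowered every difference by 1.68. The unscaled acinar signals were thus close on the 2 arrays for the median marker. The scaled acinar median was -0.13 with quantile scaling, -0.15 with normexp and quantile scaling and -0.57 with loess. The mitotic median was -1.92, -1.05 and -1.77 there. The summed level of the acinar markers, in multiples of each array's 75th percentile, was 73861 in WT and 18175 in Nrdc-cKO. Islet markers were higher in 12 of 14 measured genes, with summed levels of 386 and 2988. Macrophage markers were higher in 11 of 13 (72.7 and 181) and stellate cell and fibroblast markers in 11 of 11 (227 and 839). Of 12 adipocyte markers, 3 of the 5 measured were higher and 7 had signal in Nrdc-cKO alone (22.3 and 572). Endothelial markers were higher in 4 of 10 (27.5 and 59.3), and duct markers were higher in 4 of 12 and lower in 2 (434 and 402).

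Most lymphocyte markers were detected on 1 array at most. Of 12 B and plasma cell markers, 4 were measured, 2 of them lower, and 7 had signal in Nrdc-cKO alone (summed levels 459 and 149). Of 11 T cell markers on the array, 3 were measured, 1 of them lower, and 7 had signal in Nrdc-cKO alone (22.9 and 17.9), while Cd8a was not well above background on either array. Of 8 erythroid markers, 5 were measured and 1, Klf1, was lower (2452 and 1785). The globin genes were bright, with levels of 10.13 and 10.01 for Hba-a1 and 8.07 and 8.78 for Hbb-bt, while Epb42 and Rhag were not well above background on either array.

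Of 11 other processings, 4 add the same constant to every gene and so cannot change the order of the phases. In the other 7 the mitotic median lay below the S phase median by 0.47 to 1.75. Of the 29 genes past 2-fold lower, 15 were so in every processing that measured them, spike-in scaling aside. They were 2 of 2 G1 genes, 2 of 7 S phase genes (Cdt1 and Rrm2) and 11 of 20 mitotic genes. Among them, E2f1, Ccnb1, Cenpe and Foxm1 were not measured with bright probes only. Over the 11 processings the mitotic median lay between -2.20 and -1.05 in 10 of them and at 0.023 with spike-in scaling, where the median of all genes was 1.71 and 10 of 21 mitotic genes stayed below 0. The directions given above hold against the bulk of genes and not as absolute amounts.

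**Figure D4:**
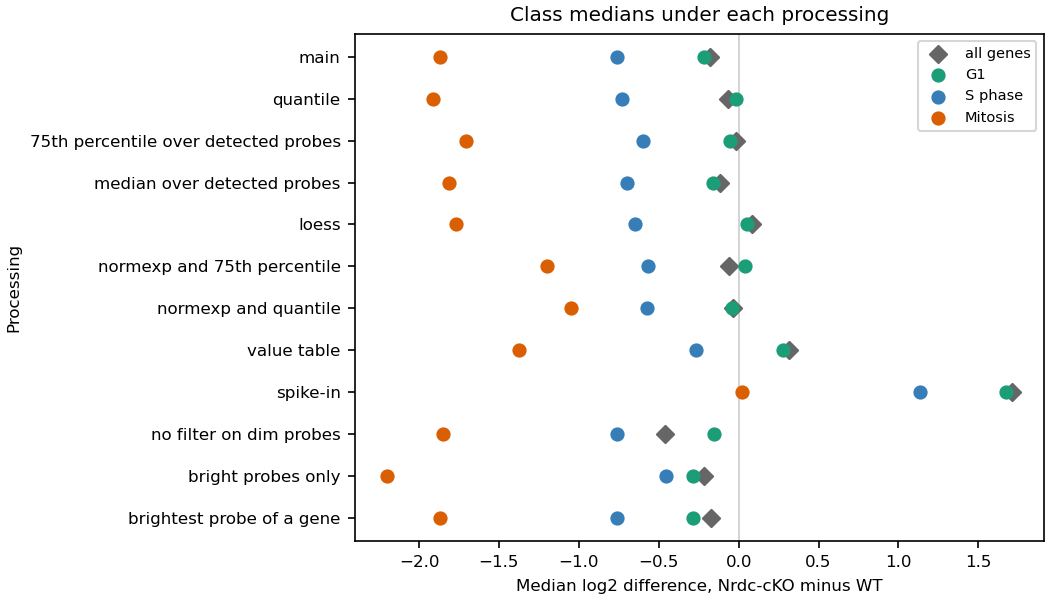
Median log2 difference, Nrdc-cKO minus WT, of all genes (diamonds) and of the G1, S phase and mitotic genes (circles) under each processing, 1 per line, with main as the processing used in the text. The mitotic median is the lowest in every line and moves to 0.023 with spike-in scaling, where all genes move to 1.71.

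Error could be judged from the arrays' own repeats alone. The log2 difference varied between repeat spots with a median SD of 0.049 over 54 probes in the level range of the cell cycle genes and a 95th percentile of 0.19. In the lowest 2 log2 units of that range the 1 probe with repeats had an SD of 0.28. Bub1, Aurkb, Kif23, Cdc25c, Cdk1, Tpx2, Nusap1 and Cenpf lie there. So do single probes of Cdc6, Gins2, Mcm3, Mcm6, Myc and Top2a. Each cell cycle probe was a lone spot. Of the 44 genes, 16 had more than 1 measured probe, with a median range of 0.16 between probes and a highest of 0.86 for Mcm3. Probes of 2 of these genes, E2f2 and Mcm3, lay on both sides of 0.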

How the data were processed

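Total RNA of whole pancreas from 1 WT and 1 Nrdc-cKO mouse was labelled with Cy3 and hybridised to 1-colour Agilent mouse arrays, on 1 slide scanned together per the file headers. The deposited scanner files give a processed intensity per spot, corrected for background by Agilent Feature Extraction (12.0.3.1 per the file headers, 11.5.1.1 per the submitters' processing notes) and not scaled between arrays. The authors' value table holds these intensities multiplied by a constant, 4.37 on the WT array and 1.92 on the other (all spots within 0.1%), on a linear scale without centring, with medians of 42.5 and 66.0. The sources used here do not say how the constants were set. Outlier, saturation and detection flags are also those of the scanner files.

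Control spots and 115 outlier spots were left out, which left 56604 probes, and no spot was saturated. Spots of a probe were averaged on the log2 scale, and the 75th percentile over non-control probes was subtracted. A gene's value is the mean over its probes with at least 0.5 of their spots well above background on both arrays. A gene detected on 1 array was given a bound against the other array, using the lowest detected signal or the probe's own, whichever was higher. Probes were named through RefSeq accessions in a gene table of GRCm38.p6 (32988 probes), used for names only, since the array design refers to another build. Promoter sequences are RefSeq's. As a check of the arithmetic, the calculation recovered 4-fold differences planted on the WT array with the same brightness shift for every gene. That check did not model unequal shifts or a change in tissue make-up. Python 3.11.15, R 4.3.3 and limma 3.58.1 (normexp) were used.

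The cell cycle genes and all lists were chosen with earlier results of these data known. All 50 genes are accounted for, and from each other cell cycle list the 2 highest and 2 lowest measured genes are named. Long promoter stretches come from the 2 mitotic and 2 S phase genes with the largest difference among those past 2-fold lower, here and in the value table, with a CHR and a CCAAT motif or an E2F motif. Cdt1, whose motif lies past the start, is shown by a short stretch only.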

Additional observations from a re-analysis of the deposited data

How the results depend on the processing

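No paired analysis was possible because a lone array stood for each group, which also leaves no replicate to drop. Dim signal limits 6 of 50 genes, which have no measured difference. Normexp ran on the median signal, the foreground the files hold. Placing genes at their bound and the 250-base promoter window were chosen after seeing the data. In the latter, CHR motifs were found in 3 rather than 5 of 13 S phase promoters, and in 11 rather than 16 of 18 mitotic ones. The share over all genes with a promoter was 28.1% in those 250 bases and 30.6% in the full window. For changes below with no stated cause, the cause was not tested.

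Spike-in scaling rests on 8 control probes and shifts every gene by 1.90, by its construction. It put the median of all genes at 1.71, of cell cycle genes at 0.55, of G1 at 1.68, of S phase at 1.13 and of mitosis at 0.023. With it, 0 cell cycle genes were lower and 14 higher (5 G1, 8 S phase, 1 mitotic), as were 115 and 10379 of all genes. Genes that turned were Ccne1 (0.10), E2f1 (0.089), Cdc6 (0.62), Cdt1 (0.26), Gins2 (0.79), Rrm2 (0.10), Tyms (0.88), Tk1 (0.86), Uhrf1 (0.71), Top2a (0.53), Cdk1 (0.082), Bub1 (0.076), Kif20a (0.32), Kif23 (0.80), Tpx2 (0.023), Nusap1 (0.56), Cenpe (0.061), Cenpf (0.27) and Foxm1 (0.045). Of the other genes, Mybl2 (0.10), Lin37 (0.80), Gadd45g (0.071), Sesn1 (0.19), Ticrr (0.056), Dbf4 (0.27) and Ncapg (0.15) turned, as did the medians of the kinetochore (0.88), spindle (0.37), acinar (0.13) and B cell (0.80) lists.

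In the value table the medians were 0.31 for all genes, -0.85 for cell cycle genes, 0.28 for G1, -0.27 for S phase and -1.38 for mitosis, with 2 S phase genes lower, 1 cell cycle gene higher (in G1), and 1074 and 2888 of all genes lower and higher. Normexp with the 75th percentile gave -0.96 for cell cycle genes, -1.20 for mitosis and 0.63 between S phase and mitosis, with 2 S phase genes lower, 1 G1 gene higher (1 in all) and 1146 of all genes lower. Pds5b was -0.049 there. Normexp with quantile scaling gave -0.74, -1.05 and 0.47, with 15 cell cycle genes lower (2 S phase, 11 mitotic) and 846 of all genes.

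With the 75th percentile over detected probes and with loess, 4 S phase genes were lower, and with loess 1385 of all genes. With bright probes only, 14 cell cycle genes were lower (1 G1, 4 S phase and 9 of 9 mitotic), the medians were -0.45 for S phase and -2.20 for mitosis, 1.75 apart, and 1323 and 902 of all genes were lower and higher. With no filter the median of all genes was -0.46, with 8012 lower and 3108 higher, and the B cell median was 0.91. At 1.5-fold, 1 cell cycle gene was higher, in G1, and 4063 and 2617 of all genes were lower and higher. At 4-fold, 9 cell cycle genes were lower (0 G1, 0 S phase, 9 mitotic), and 390 and 485 of all genes. Quantile scaling, the median over detected probes and the brightest probe kept every class median within 0.27 of the text's value. Cdkn1a stayed between 4.06 and 6.27, and Phlda3 between 3.81 and 5.70, in every processing run.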

Other observations

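The motifs of the mitotic promoters were also looked for in the rest of the genes measured on both arrays, with the cell cycle genes named above left out. The 980 genes with a CHR and a CCAAT motif in 1 promoter window had a median log2 difference of -0.23, and 22.8% of them were past 2-fold lower. The 9335 genes without the pair had a median of -0.17, with 16.3% at least 2-fold lower. The 442 genes with an E2F motif had a median of -0.15 and 12.2% at least 2-fold lower, against -0.18 and 17.2% of the 9873 genes without. These are descriptions of the arrays, and other cell cycle genes outside the 50 are among the genes counted.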
